A study of Mus musculus with 10 samples.

Results

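Levels of 10 genes of the circadian clock, Per1, Per2, Per3, Cry1, Cry2, Clock, Nr1d1, Nr1d2, Dbp and Tef, were followed along the mouse gut of animals that had undergone sleeve gastrectomy (VSG, vertical sleeve gastrectomy) or sham surgery. The genes were taken by the mouse symbol of the Entrez identifier and are 10 of 23079 genes in the deposited table. All 10 had a mean of at least 1 RPKM (reads per kilobase of gene, scaled to library depth) and were among the 13325 genes tested. VSG removes the lateral 80% of the stomach and leaves a tube of about 20% of its area, while sham animals had their abdomen opened and their stomach pressed with hemostats. All libraries came from male C57BL/6J mice, 17 weeks old, that had been fed a high-fat diet over 13 weeks. They were fasted overnight before the operation and drank a liquid diet for the first 3 days after it. Stomach, duodenum, jejunum, ileum and colon gave 1 VSG and 1 sham library each. The labels give neither the number of animals behind a library, nor the time after surgery, nor the hour of the day at which tissue was taken, so p-values measure only the spread between these libraries, and a difference in hour of sampling cannot be told apart from surgery.

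The circadian clock is a feedback loop of transcription that runs in almost every cell with a period of about a day. CLOCK and its partner BMAL1 (gene Arntl) bind E-boxes and switch on the Per and Cry genes, whose proteins return to the nucleus and block that activation. In a linked loop, REV-ERB alpha and beta (genes Nr1d1 and Nr1d2) repress Arntl, and DBP and TEF, transcription factors of the PAR bZIP family, act through D-boxes on output genes. In the gut wall, epithelium, smooth muscle and enteric neurons each hold such a clock, and feeding time and glucocorticoids are known to set its phase.

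Recovered reads per library ranged from 36069231 in VSG jejunum to 79291562 in sham stomach, and a clock gene held between 520 (Cry1 in VSG stomach) and 13566 reads (Tef in sham stomach). Tissue markers went against the label of 1 library. Neural markers summed to 1926 RPKM in the library labelled sham duodenum, against 12.2 to 50.9 RPKM in the other 9, and 8 epithelial markers summed to 7.42 RPKM there, against at least 1920 RPKM elsewhere. That library was left out of the fits, and duodenum stands on its VSG library alone. In stomach, 6 stomach markers summed to 18630 RPKM in the VSG library and 126081 RPKM in the sham library. In the same order, 8 liver markers summed to 15949 and 66.9 RPKM and 8 leukocyte markers to 3866 and 236 RPKM. There, 6 smooth muscle markers summed to 1566 and 2290 RPKM and 6 pancreatic acinar markers to 1490 and 120 RPKM. Acinar markers were also higher in VSG jejunum (228 RPKM) than in sham jejunum (2.05 RPKM) and in VSG colon (412 RPKM) than in sham colon (2.32 RPKM), but not in VSG ileum (3.28 RPKM) against sham ileum (6.01 RPKM). VSG duodenum had the highest acinar sum of all libraries (2556 RPKM). Its stomach markers summed to 1255 RPKM, against 17.4 RPKM in VSG jejunum. The part of these markers in the clock gene values was not tested, and in bulk tissue fewer cells of a type and less RNA per cell cannot be told apart.

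In GRCm38.p6 the genes lie at chr11:69095108-69109965 (Per1), chr1:91415977-91459351 (Per2), chr4:150997018-151044707 (Per3), chr10:85131700-85185054 (Cry1), chr2:92403646-92434085 (Cry2), chr5:76209868-76305603 (Clock), chr11:98767932-98775377 (Nr1d1), chr14:18204056-18239106 (Nr1d2), chr7:45705100-45710203 (Dbp) and chr15:81802673-81826863 (Tef). Stretches before annotated starts are shown because E-boxes and D-boxes are the letters through which the loop is known to act on its own genes. RefSeq held windows from 250 bases before to 50 bases after the start for 9 of the 10 genes, 13 windows in all (build GRCm38.p6). The E-box CACGTG, searched on both strands, lay in 4 of the 13 windows, namely 1 of Cry1, 1 of Per1 and both of Tef, and in 7.15% of 32851 windows of all genes. The variant CACGTT lay in 3 windows, of Cry1, Cry2 and Nr1d1, against 4.68% of all windows. The D-box TTANGTAA, to which DBP and TEF bind, lay in the Per3 window at 2 places and in 2.32% of all windows. Neither the REV-ERB response element (0.435% of all windows) nor the cyclic AMP element TGACGTCA (1.79%) was found in these windows. A match is a description of letters and not a site shown to be bound. The bases before the start are printed 5′ to 3′ on the gene's strand for the genes with an E-box or D-box, with those boxes in capitals. They are chr11:69098699-69098948 (plus strand) for Per1, chr4:151044666-151044915 (minus) for Per3, chr10:85185055-85185304 (minus) for Cry1 and chr15:81802423-81802672 (plus) for Tef.
Per1: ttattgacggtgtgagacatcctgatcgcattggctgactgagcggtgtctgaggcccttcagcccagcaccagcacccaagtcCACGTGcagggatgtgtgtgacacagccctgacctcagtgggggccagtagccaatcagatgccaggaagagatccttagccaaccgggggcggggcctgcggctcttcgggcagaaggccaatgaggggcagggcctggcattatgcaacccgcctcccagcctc
Per3: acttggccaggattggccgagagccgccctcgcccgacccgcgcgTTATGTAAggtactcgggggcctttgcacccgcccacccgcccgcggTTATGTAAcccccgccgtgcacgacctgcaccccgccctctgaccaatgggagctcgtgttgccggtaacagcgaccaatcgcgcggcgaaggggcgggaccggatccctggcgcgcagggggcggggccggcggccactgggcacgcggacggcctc
Cry1: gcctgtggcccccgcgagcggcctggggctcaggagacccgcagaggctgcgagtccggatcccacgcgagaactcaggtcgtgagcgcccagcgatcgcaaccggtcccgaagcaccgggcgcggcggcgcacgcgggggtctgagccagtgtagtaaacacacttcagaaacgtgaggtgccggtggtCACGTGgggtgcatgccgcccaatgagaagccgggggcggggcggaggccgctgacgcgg
Tef: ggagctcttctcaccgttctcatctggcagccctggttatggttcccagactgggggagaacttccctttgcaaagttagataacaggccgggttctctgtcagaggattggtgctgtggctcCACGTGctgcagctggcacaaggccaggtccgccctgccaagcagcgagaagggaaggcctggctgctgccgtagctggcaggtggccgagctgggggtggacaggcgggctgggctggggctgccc

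The colon had the highest tissue mean for 8 of the 10 clock genes (39.5% of all genes tested) and the stomach the lowest for 7 (32.8%). Clock, Nr1d1, Nr1d2, Dbp and Tef, 5 of the 10, had both (10.7%), while Per2 and Cry1 were highest in VSG duodenum, Per1 was lowest in ileum and Per3 and Cry2 were lowest in jejunum. These are plain means of the VSG and sham library, and for duodenum the VSG value alone. The limma tests compare tissues with surgery as a term, so the order around duodenum may differ in the fit from that of the means. Tissue levels differed for 8 genes by limma's F test over the 5 tissues with surgery as a term (adjusted p between 0.00649 for Cry1 and 0.0241 for Tef, Benjamini-Hochberg over all genes), against 53.8% of all genes tested. Per3 (adjusted p = 0.0709) and Clock (0.0761) did not pass. The count of 8 was 3 without the colon pair (23.1% of all genes), 5 without the ileum pair (32.7%), 6 without the jejunum pair (30.7%) and 10 without the stomach pair (78.4%). It was 3 with scaling without the 10 highest genes of any library, 47 genes in all (38.2%), and 0 with the library that held neural RNA included (6.03%). Without the surgery term it was 6 (60.3%). The difference between colon and stomach passed for the most genes. All 10 genes were higher in colon than in stomach (limma, adjusted p between 0.00373 for Nr1d1 and 0.0406 for Per3), against 29.4% of all genes (7.63% were lower), and the median log2 difference was 0.91 for the clock genes and 0.26 for all genes. When each library was scaled to what remained after removing the 10 highest genes of any library, 5 of the 10 passed (14.8% of all genes) and the median was 0.85, against 0.21 for all genes. Colon was higher than jejunum for 6 of the 10, all but Per2, Cry1, Clock and Dbp (38.8% of all genes) and higher than ileum for 4, namely Per1, Cry2, Dbp and Tef (21.2% of all genes). Within the small intestine, jejunum and ileum differed for none (2.24% of all genes were higher and 1.38% lower in ileum). Ileum was lower than duodenum for Per1 and Cry1 (3.11% of all genes), and jejunum differed from duodenum for none (0.075% of all genes were higher and 0.203% lower). Duodenum was above stomach for Per1, Per2, Cry1, Dbp and Tef (21.6% of all genes, with 10.4% below), jejunum for Per2, Cry1, Nr1d1 and Dbp (19.3%, with 24.4% below) and ileum for Per2, Cry1, Nr1d1 and Nr1d2 (19.1%, with 17.4% below). Colon was below duodenum for Cry1 alone of the 10 (8.4% of all genes) and above it for none (10.3%). With the scaling without the 10 highest genes, colon was higher than jejunum for 2 (31% of all genes) and than ileum for 2 (13.2%). In the same scaling duodenum was above stomach for 2 (10.5%), jejunum for 1 (15%) and ileum for 1 (13.4%), and ileum and colon were lower than duodenum for none (1.21% and 5.57%). Of the 40 steps between neighbours in the genes' own orders of tissues, 5 passed. The share of such steps that passed among all genes was not worked out, so this count has nothing to be set against.

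**Figure D1:**
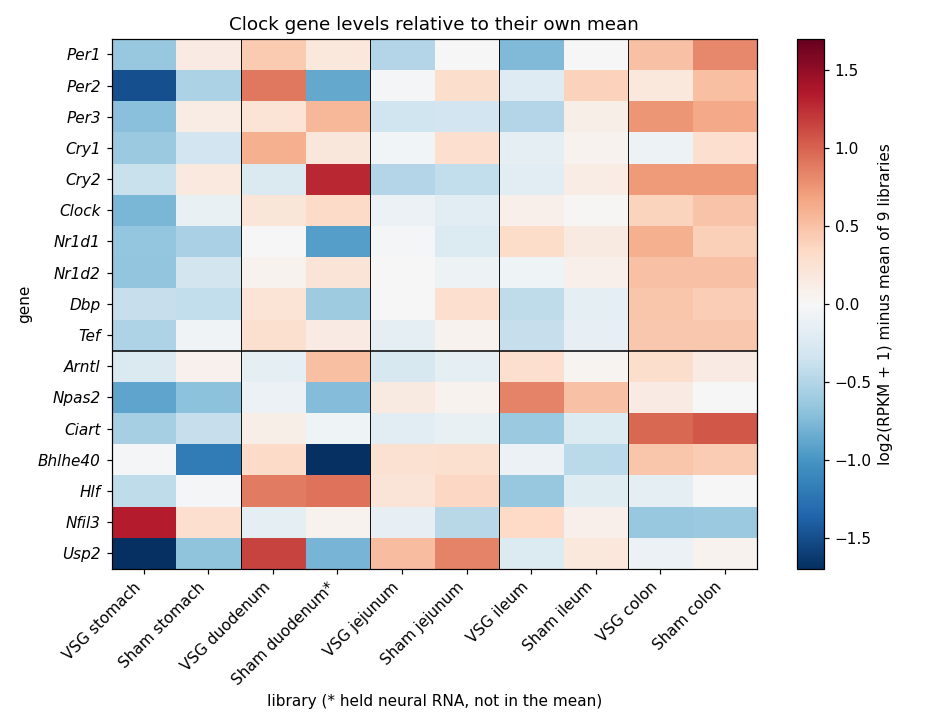
Level of each clock gene (upper block: the 10 genes described; lower block: partner and related genes) in each library, as log2(RPKM + 1) minus the gene's mean over 9 libraries. Both colon columns are above the mean for every gene of the upper block except Cry1, and the VSG stomach column is below it for all 10.

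After VSG, Per1, Per2 and Cry1 were lower than after sham in each complete pair and had the smallest p-values of the 10 genes. Over the 4 tissues with both libraries, the estimate from limma with tissue as a block was -0.58 for Per1 (SE 0.10, unadjusted p = 0.00246), -0.56 for Per2 (SE 0.13, unadjusted p = 0.00837) and -0.31 for Cry1 (SE 0.065, unadjusted p = 0.00543), all on the log2(RPKM + 1) scale. The fit treats the 4 pairs as independent. Tissues of a surgery may come from the same animals, which cannot be told from the labels, so the pairs may not replicate surgery. None passed after Benjamini-Hochberg adjustment over 13325 genes (adjusted p = 0.826 for each), and no gene in the table did, so 0.0% of all genes were called in either direction. By unadjusted p under 0.05, 3 of the 10 clock genes were lower and none higher, against 1.16% lower and 1.46% higher among all genes. By p, Per1 ranked 6, Cry1 18 and Per2 32 of 13325. These 3 are repressors of the loop, but not all repressors went that way. Of 11 listed repressors, the 3 included, 7 had an estimate below 0, and Bhlhe40 (0.39) and Nr1d1 (0.12) were above 0. Leaving out each tissue pair in turn gave -0.67 to -0.52 for Per1, -0.64 to -0.42 for Per2 and -0.34 to -0.29 for Cry1, with adjusted p between 0.502 and 0.914. Without tissue as a term the estimates were -0.43 for Per1, -0.30 for Per2 and -0.14 for Cry1 (unadjusted p between 0.230 and 0.583 by limma). In that fit VSG duodenum, which has no sham partner, enters the VSG mean. Over the 4 complete pairs alone the plain mean differences equal the estimates with tissue as a block. With all 10 libraries, where the duodenum pair includes neural RNA, they were -0.42, -0.09 and -0.16 for the same genes (unadjusted p between 0.0644 and 0.831).

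The direction was shared by more of the genes than these 3. Of the 10 estimates, 9 were below 0, as were 6870 of all 13325, with a median of -0.23 against -0.0046 for all genes. Per1, Per2, Cry1 and Tef were lower in VSG in all 4 complete pairs (Tef in colon by less than counting error), as were 6.66% of all genes, and none of the 10 was higher in all 4 (7.36% of all genes). Without the stomach pair the same count was 4 (12.5% of all genes), and with the duodenum pair, which rests on the library with neural RNA, it was 0 (3.16%). Rescaling to 1 total (5.62%) and scaling without the 10 highest genes (9.24%) gave 4 each. Per tissue, the median log2 difference of the 10 genes was -0.51 in stomach, -0.15 in jejunum, -0.26 in ileum and -0.0047 in colon, while the median of all genes lay between -0.02 and 0.01. Markers of other cell types also differed between the libraries of these pairs. In stomach the median log2 difference of the 6 stomach markers was -3.29. The median log2 difference of 6 smooth muscle markers was -0.51 in stomach, 0.01 in jejunum, -0.39 in ileum and -0.15 in colon. In the same order it was -0.86, -0.07, -0.17 and -0.29 for neural markers and 3.97, 0.80, 0.13 and 0.32 for 8 leukocyte markers. For liver markers it was 9.39, 0.55, 0.42 and 0.83, and for pancreatic acinar markers 6.35, 4.715, -0.338 and 5.665. Only markers with a mean of at least 1 RPKM in the pair enter these medians. The part of these markers in the clock gene medians was not tested. The clock gene median was nearest to 0 in colon, where intervals of counting error lay wholly below equality for Per1, Per2, Cry1 and Clock and wholly above it for Per3, Nr1d1 and Dbp. No clock gene reached 2-fold on the log2(RPKM + 1) scale in stomach (12.9% of all genes higher, 3.94% lower), jejunum (0.762% and 0.3%), ileum (0.148% and 0.123%) or colon (0.432% and 0.0463%).

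**Figure D2:**
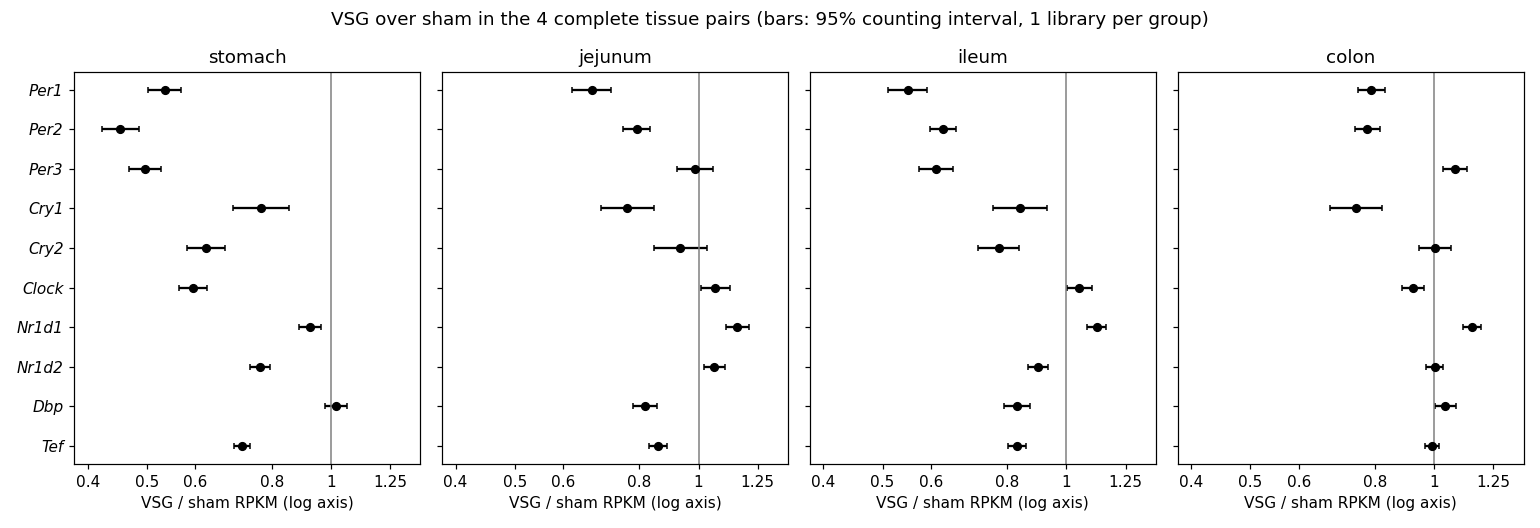
Ratio of VSG RPKM to sham RPKM (log axis) for each clock gene in the 4 complete tissue pairs, with exact 95% intervals that cover counting error only. In stomach 9 of the 10 intervals lie below 1 and none above (42% and 41% of all genes with recovered reads), in jejunum 5 below and 3 above (30.9% and 28.1%), in ileum 8 below and 2 above (23.1% and 25.7%) and in colon 4 below and 3 above (22.1% and 23.2%).

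Among the repressors, Per1 and Per2 encode PERIOD proteins, which act in the negative feedback of the loop. Per1 stood at 4.67 RPKM in VSG stomach, 5.25 in VSG jejunum, 4.28 in VSG ileum and 11.6 in VSG colon, against 8.74 RPKM in sham stomach, 7.85 in sham jejunum, 7.79 in sham ileum and 14.7 in sham colon. VSG was the lower library in every pair, and all values of the stomach, jejunum and ileum pairs stayed below either colon value. It was 1.87-fold lower in stomach (exact 95% interval of counting error 1.76 to 1.99), 1.496-fold in jejunum (1.39 to 1.61), 1.82-fold in ileum (1.69 to 1.96) and 1.27-fold in colon (1.21 to 1.33). Its tissue mean was highest in colon (13.1 ± 2.19 RPKM, SD over the VSG and sham library), next to the single value of VSG duodenum (11.04 RPKM). By limma with surgery as a term, duodenum and colon did not differ (adjusted p = 0.831), and duodenum exceeded stomach (adjusted p = 0.0178).

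Per2 was at 3.44 RPKM in VSG stomach, 11.4 in VSG jejunum, 9.73 in VSG ileum and 13.2 in VSG colon, against 7.60 RPKM in sham stomach, 14.4 in sham jejunum, 15.5 in sham ileum and 16.96 in sham colon. It was again lower in each VSG library, by 2.21-fold in stomach (2.06 to 2.37), 1.26-fold in jejunum (1.20 to 1.33), 1.59-fold in ileum (1.51 to 1.67) and 1.29-fold in colon (1.23 to 1.346). Unlike Per1, Per2 had its highest value in VSG duodenum (22.4 RPKM). Stomach was lowest at 5.52 ± 2.95 RPKM, below ileum at 12.6 ± 4.07 RPKM (adjusted p = 0.0106), and among duodenum, colon, jejunum and ileum no step between neighbours passed. The ratio of Per2 to Per1, which compares 2 genes per length, was 2.17 and 2.27 in VSG jejunum and ileum and 1.83 and 1.99 in the sham libraries, but 0.737 in VSG stomach and 0.871 in sham stomach.

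Per3, whose protein is the least required for rhythm in mouse, was 2.02-fold lower in VSG stomach (3.55 RPKM) than in sham stomach (7.15 RPKM) and 1.64-fold lower in VSG ileum (4.27 RPKM) than in sham ileum (7.00 RPKM). In jejunum the libraries differed by less than counting error, at 4.91 RPKM in VSG and 4.97 RPKM in sham, and in colon VSG was the higher, at 11.6 RPKM against 10.7 RPKM in sham. The estimate over tissues was -0.34 (SE 0.19, unadjusted p = 0.132 by limma) and -0.17 without the stomach pair.

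Cry1 and Cry2 encode the cryptochromes, the strongest repressors of CLOCK and BMAL1. Of the 10 surgery estimates, that of Cry1 had the smallest SE. It was at 3.73 RPKM in VSG stomach, 6.04 in VSG jejunum, 5.54 in VSG ileum and 5.88 in VSG colon, against 4.84 RPKM in sham stomach, 7.90 in sham jejunum, 6.59 in sham ileum and 7.89 in sham colon, that is 1.19-fold to 1.34-fold lower in VSG. Its tissue order was led by VSG duodenum (10.1 RPKM), and stomach (4.28 ± 0.788 RPKM) was below ileum (6.06 ± 0.747 RPKM, adjusted p = 0.0231). Cry2 had another distribution, with colon (8.58 ± 0.0135 RPKM) above ileum (4.73 ± 0.851 RPKM, adjusted p = 0.0306) and the other tissues between 3.23 and 4.49 RPKM. VSG and sham values of Cry2 were 3.46 and 5.53 RPKM in stomach, 3.12 and 3.34 in jejunum, 4.13 and 5.33 in ileum and 8.59 and 8.57 in colon, so the pairs of stomach and ileum differed beyond counting error and those of jejunum and colon did not.

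**Figure D3:**
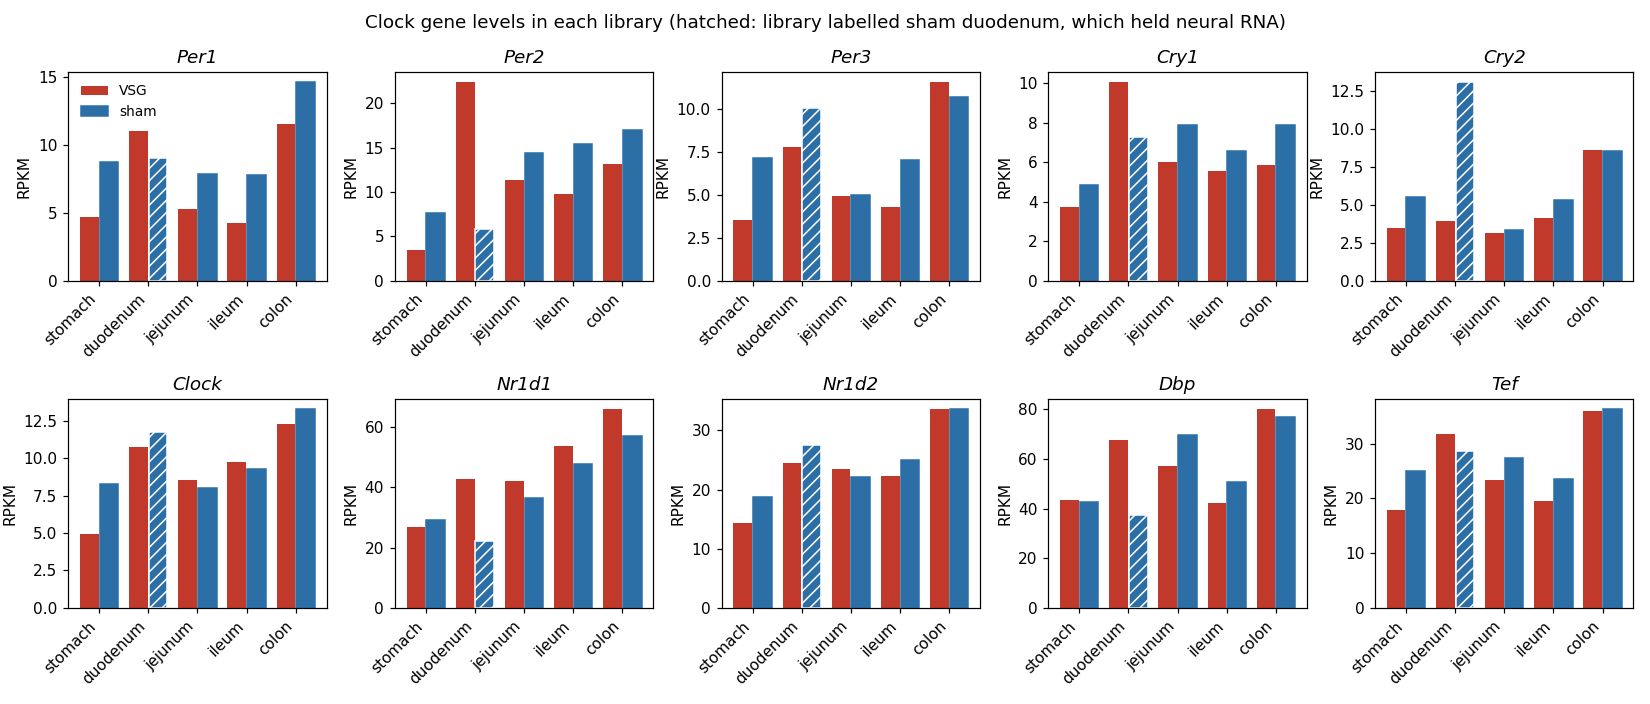
RPKM of the 10 clock genes in each of the 10 libraries by tissue, VSG in red left of sham in blue, 1 library per bar; the axis of each panel starts at 0. Per1, Per2 and Cry1 are lower in VSG in stomach, jejunum, ileum and colon and higher in VSG in duodenum, where the hatched sham bar is the library that held neural RNA.

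REV-ERB alpha and beta tie the clock to lipid metabolism in liver and gut. Of the 10 genes, Nr1d1 alone had an estimate above 0. It was at 42.2 RPKM in VSG jejunum, 53.7 in VSG ileum and 66.0 in VSG colon, against 36.5 RPKM in sham jejunum, 48.0 in sham ileum and 57.2 in sham colon, and at 26.9 RPKM in VSG stomach against 29.1 RPKM in sham stomach. VSG was thus 1.12-fold to 1.16-fold higher in the 3 intestinal pairs and 1.08-fold lower in stomach, and the estimate over tissues was 0.12 (SE 0.087, unadjusted p = 0.243) and 0.19 without the stomach pair. In order of level Nr1d1 ran through stomach (28.0 ± 1.56 RPKM), jejunum (39.3 ± 4.05), duodenum (43.0), ileum (50.9 ± 4.09) and colon (61.6 ± 6.25 RPKM), and only the step between stomach and jejunum passed (adjusted p = 0.0328). Of its 3077 exon bases in GENCODE M21, 8.55% overlap Thra on the opposite strand, a gene at 8.95 to 81.8 RPKM here. The strand setting of the counting is not given, so reads of such a stretch cannot be told apart.

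Nr1d2 had 14.4 RPKM in VSG stomach against 18.8 RPKM in sham stomach, 23.5 against 22.1 in jejunum, 22.4 against 24.9 in ileum and 33.6 in both colon libraries. Its pairs differed by 1.31-fold at most, and its colon mean exceeded its stomach mean by 0.99 on the log2 scale (SE 0.14, adjusted p = 0.00710).

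Dbp and Tef belong to the output arm. Dbp had the highest level per length of the 10 genes in each library of the complete pairs except VSG ileum, where Nr1d1 was higher. It was at 43.6 RPKM in VSG stomach, 57.0 in VSG jejunum, 42.2 in VSG ileum and 80.2 in VSG colon, against 42.8 RPKM in sham stomach, 69.8 in sham jejunum, 50.8 in sham ileum and 76.9 in sham colon. It was 1.22-fold lower in VSG jejunum (1.17 to 1.28) and 1.20-fold lower in VSG ileum (1.15 to 1.26), while the stomach and colon pairs lay within 1.04-fold. Scaling without the 10 highest genes of either stomach library turned the stomach difference to -0.33 on the log2 scale, where it was 0.03 as deposited. Of its 2993 exon bases, 18% overlap Sphk2 on the opposite strand, at 6.56 to 30.9 RPKM. Tef was at 17.9 RPKM in VSG stomach, 23.4 in VSG jejunum, 19.6 in VSG ileum and 36.0 in VSG colon, against 25.0 RPKM in sham stomach, 27.3 in sham jejunum, 23.6 in sham ileum and 36.3 in sham colon. It was lower in every VSG library, but in colon by less than counting error, and the estimate was -0.24 (SE 0.095, unadjusted p = 0.0558).

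Of the activators, Clock was at 4.91 RPKM in VSG stomach against 8.27 RPKM in sham stomach, 1.68-fold lower (1.598 to 1.77). In the other pairs it stayed within 1.08-fold, at 8.51 and 7.99 RPKM in VSG and sham jejunum, 9.76 and 9.29 in VSG and sham ileum and 12.3 and 13.3 in VSG and sham colon. Its estimate over tissues was -0.15 (SE 0.15, unadjusted p = 0.345) and 0.01 without the stomach pair. The partner Arntl, which is not among the 10 genes, was at 2.52 RPKM in VSG stomach, 2.48 in VSG jejunum, 4.11 in VSG ileum and 4.15 in VSG colon, against 3.40 RPKM in sham stomach, 2.78 in sham jejunum, 3.31 in sham ileum and 3.62 in sham colon. It was lower in stomach and jejunum and higher in ileum and colon, with an estimate of -0.01 (SE 0.12, unadjusted p = 0.937). Npas2, which can replace Clock, was at 1.29 RPKM in VSG stomach, 3.71 in VSG jejunum, 6.58 in VSG ileum and 3.67 in VSG colon, against 1.62 RPKM in sham stomach, 3.42 in sham jejunum, 4.96 in sham ileum and 3.24 in sham colon. It was lower in stomach and higher in ileum and colon, and in jejunum the libraries differed by less than counting error (estimate 0.10, SE 0.11, unadjusted p = 0.430).

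Outside the 10 genes, 18 further genes of the core loop and of clock protein turnover were listed, of which 14 were tested. None was called after adjustment. By unadjusted p under 0.05, 2 were lower and none higher (1.16% and 1.46% of all genes). In all 4 pairs, 3 were lower and none higher (6.66% and 7.36% of all genes). Estimates of 7 of the 14 were below 0, and the median estimate was 0.01. The 2 lower by unadjusted p were Hlf, the third PAR bZIP factor (-0.28, SE 0.090, unadjusted p = 0.0278), and Usp2, a deubiquitinase of clock proteins (-0.49, SE 0.17, unadjusted p = 0.0323). Usp2 was at 3.62 RPKM in VSG stomach against 8.63 RPKM in sham stomach, 21.1 against 26.7 in jejunum, 12.1 against 16.4 in ileum and 13.5 against 15.1 in colon. Besides these, Ciart, a repressor of CLOCK and BMAL1, was lower in all 4 pairs (-0.18, SE 0.087, unadjusted p = 0.0999 by limma), in jejunum and colon by less than counting error. Higher by 2-fold or more in VSG stomach were Nfil3, the antagonist of DBP at D-boxes (7.71 RPKM against 3.18 RPKM in sham stomach), and Bhlhe40, a repressor at E-boxes (50.8 against 22.1 RPKM). Usp2 was lower by that much there, and in the other 3 pairs no gene of these lists reached 2-fold. Rora was at 0.97 RPKM in VSG stomach and 1.96 RPKM in sham stomach and did not pass the minimum over tissues.

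**Figure D4:**
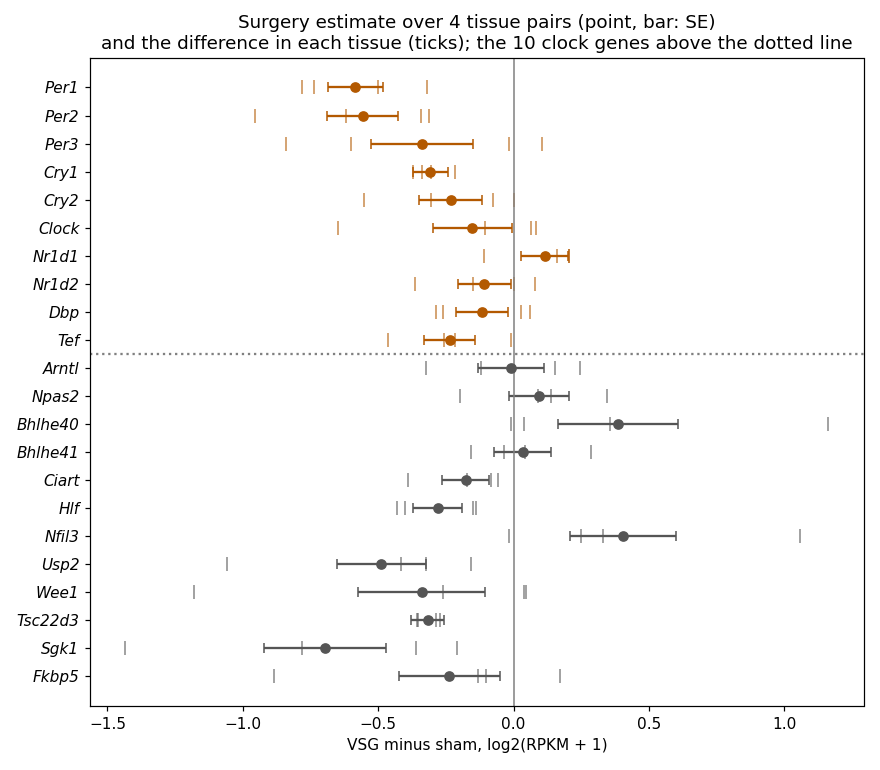
VSG minus sham on the log2(RPKM + 1) scale: points are limma estimates over the 4 complete tissue pairs with SE bars, and ticks are the single differences in stomach, jejunum, ileum and colon. Per1, Per2, Cry1 and Tef have all ticks below 0, with estimates of -0.58, -0.56, -0.31 and -0.24.

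Of 12 output genes, which are known targets of the clock in liver or gut, 6 had an estimate below 0, with a median of -0.01. By unadjusted p under 0.05, 1 was lower and none higher (1.16% and 1.46% of all genes). That gene was Tsc22d3, which encodes the glucocorticoid-induced leucine zipper (-0.32, SE 0.062, unadjusted p = 0.00381 by limma), and it was lower in all 4 pairs (6.66% of all genes). Past 2-fold were Wee1, a cell cycle kinase (5.25 RPKM in VSG stomach against 13.2 RPKM in sham stomach), Ppara (8.55 against 3.47 RPKM in stomach), Tspan4 (48.7 against 12.9 RPKM in stomach) and Pdk4, a brake on glucose oxidation (12.9 RPKM in VSG colon against 2.86 RPKM in sham colon). Of 7 glucocorticoid response genes other than Per1, which responds to the hormone directly, 6 were tested. Estimates of 4 were below 0, and the median estimate was -0.21. Lower by unadjusted p (1.16% of all genes) and in all 4 pairs (6.66%) were 2 of them. Beside Tsc22d3 this was Sgk1, a kinase that promotes sodium uptake (-0.70, SE 0.22, unadjusted p = 0.0270), at 18.2 RPKM in VSG stomach against 51.0 RPKM in sham stomach, 37.8 against 65.7 in jejunum, 59.5 against 76.6 in ileum and 35.7 against 41.4 in colon. Others of that list differed in direction. Dusp1 was at 29.2 RPKM in VSG stomach and 9.92 RPKM in sham stomach, Errfi1 at 51.0 and 12.3 RPKM, and Fkbp5 at 7.91 RPKM in VSG stomach and 15.5 RPKM in sham stomach.

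The difference between the arms of the loop was described by the mean log2(RPKM + 1) of Per1, Per2, Per3, Nr1d1, Nr1d2, Dbp and Tef minus that of Arntl, Npas2, Clock, Cry1 and Nfil3, genes known to peak at other times of day in mouse tissues. It was 1.43 in VSG stomach and 1.84 in sham stomach, 1.84 and 2.00 in VSG and sham jejunum, 1.34 and 1.83 in VSG and sham ileum and 2.39 in both colon libraries. VSG was lower in stomach, jejunum and ileum, by 0.42, 0.16 and 0.49, and colon showed no difference to 2 decimals. The ratio of Dbp to Arntl per length, from genes of opposite phase, was 17.3 in VSG stomach and 12.6 in sham stomach, 23.0 and 25.1 in VSG and sham jejunum, 10.3 and 15.3 in VSG and sham ileum and 19.3 and 21.2 in VSG and sham colon. It was lower in VSG in 3 of the 4 pairs and higher in stomach. These values are descriptions of single libraries and carry no test.

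In duodenum the VSG library can be set only beside the library with neural RNA. Per2 was 3.81-fold higher in VSG duodenum (22.4 RPKM) than in that library (5.89 RPKM), and Cry2 was 3.36-fold lower (3.91 against 13.1 RPKM), and these were the 2 genes past 2-fold there (27.5% of all genes were higher and 27.9% lower). Nr1d1 was at 43.0 RPKM in VSG duodenum against 22.1 RPKM, and Dbp at 67.8 against 37.3 RPKM. Per1 (11.04 against 9.05 RPKM), Cry1 (10.1 against 7.30 RPKM) and Tef (31.8 against 28.7 RPKM) were higher in VSG with the authors' scaling. They were lower after scaling without the 10 highest genes, and Per1 and Tef also after rescaling to 1 total. Per3 (7.77 against 10.04 RPKM), Clock (10.7 against 11.8 RPKM) and Nr1d2 (24.5 against 27.5 RPKM) were lower. These values compare libraries of different tissue and not VSG with sham.

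Across the 9 libraries the 10 genes varied together in part. Pairwise Pearson r of log2(RPKM + 1) ranged between 0.09 for Cry1 with Cry2 and 0.94 for Per2 with Cry1, with a median of 0.70. The 9 libraries are of 5 tissues and differ in depth, and r was not worked out for all gene pairs. The genes nearest to Dbp by this measure were Sh3d21 (0.99), Smyd2, Acad10, Lrrc56 and Slc20a1, and those nearest to Nr1d1 were Klf5 (0.99), Eif4b, 2010315B03Rik, Gm609 and Chmp1b. Those nearest to Per2 were Glp2r (0.98), Coprs, Pigo, Fastkd5 and Pnn, and those nearest to Clock were Ncoa1 (0.99), Cnot1, Purb, Ints8 and 1 gene without a symbol. Klf5 was at 87.2 RPKM in VSG colon and 90.5 RPKM in sham colon, and at 12.0 RPKM in VSG stomach and 16.1 RPKM in sham stomach, a wider span between colon and stomach than that of Nr1d1.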

How the data were processed

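Libraries were TruSeq libraries of TRIzol RNA, per the labels' protocols. The authors deposited 1 table of RPKM values by Entrez identifier. GSNAP, Cufflinks and mm10 are named per the submitters' processing notes; versions, annotation, filters and strand use are not given there. Between data rows 27 and 18213 the 8 intestinal columns stood 1 row below their genes and were moved back. Reads recovered from the RPKM steps were whole within 0.001 for 99.903% of 18580 genes, and in a sample of 1324 genes of the block for 2.04% as deposited and 99.9% after the move.

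The model, on the log2(RPKM + 1) scale, was fitted with limma 3.58.1 (R 4.3.3). That scale understates changes of low genes. Genes whose mean was 1 RPKM or more were kept (trend, tissue and surgery terms, 9 libraries, 3 residual degrees of freedom; tested on simulated data). Adjusted p-values are Benjamini-Hochberg over 13325 genes per contrast. Ratios within a tissue, on the authors' scaling and without a test, carry exact conditional binomial (Clopper-Pearson) 95% intervals of recovered reads. The 10 genes and all lists were chosen with earlier results of these data known. Named beside them were Arntl, Npas2, Nfil3, Hlf, Ciart, Bhlhe40, Rora, list genes past 2-fold in a complete pair, and the nearest genes by correlation; Tsc22d3 and Fkbp5 were added after their values were seen. Some clock genes are not reported here. Alternatives changed the pseudocount, filter, scaling, row repair, libraries and model terms. In the fits, scaling without the 10 highest genes left out the 10 highest of any of the 9 libraries, 47 genes in all. For differences within a tissue it left out the 10 highest of that tissue's VSG library and sham library.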

Additional observations from a re-analysis of the deposited data

Results flagged for a closer look

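Among 5 libraries of a surgery, Cry2 in VSG colon (8.59 RPKM) and Per1 in sham colon (14.66 RPKM) lay far above the other 4. Their gaps to the next library were 0.742 and 0.768 of the range, past a limit of 0.71. That limit is made for replicates, while these libraries are of 5 tissues and the sham ones include the library with neural RNA. The chance of such gaps therefore cannot be read from it. Every clock gene was screened under both surgeries. Cry2 was at 8.57 RPKM in sham colon, so its flag restates the colon level. The library labelled sham duodenum had 13.12 RPKM of Cry2, above the other 4 sham libraries.

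For 5 genes the ratio of VSG to sham had opposite directions in different tissues with intervals that did not reach 1, and with 1 library per group these differences between tissues were not tested. The share of all genes that meet this rule was not worked out. Such intervals are common, since in stomach they lay below 1 for 42% of all genes and above 1 for 41%. Per3 was at 1.081 in colon and 0.4961 in stomach. Clock was at 1.065 in jejunum and 0.5944 in stomach. Nr1d1 was at 1.157 in jejunum and 0.9241 in stomach, and Nr1d2 at 1.06 and 0.7658 in the same tissues. Dbp was at 1.043 in colon (interval 1.004 to 1.084) and 0.817 in jejunum. Its colon difference was 0.06 on the log2 scale with the authors' scaling and 0.03 after rescaling to 1 total.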

How the results depend on the processing

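No clock gene was called for surgery under any alternative run. Estimates changed sign for Clock without the stomach pair (0.01324, and -0.2299 at the lowest without another pair), Nr1d1 (-0.1806) and Nr1d2 (0.05194) with the rows as deposited, and Dbp with all 10 libraries (0.07658), where the duodenum pair includes neural RNA. The count of clock genes that differed between tissues was 8 (53.8% of all genes), 0 (6.03%) with all 10 libraries, 3 (38.2%; Per1, Per2 and Dbp) with scaling without the 10 highest genes, and between 3 (23.1%, without colon) and 10 (78.4%, without stomach) with a tissue pair left out, with 5 (32.7%) without ileum. Without the surgery term it was 6 (60.3%), and Per1 (limma F test, adjusted p = 0.144) and Cry1 (0.0552) no longer passed. Within stomach, the count past 2-fold was 0, 1 lower with a pseudocount of 0.1 (Per2; 5.94% of all genes were lower) and 3 lower with scaling without the 10 highest genes (Per1, Per2 and Per3; 8.62%, against 3.94% as deposited), a scaling that shifted the all-gene median by -0.32. Within duodenum it was 4 higher with the rows as deposited (27.5% of all genes). The count lower in each pair was 0 with the duodenum pair. Rescaling to 1 total shifted that median by -0.36 in duodenum and 0.10 in jejunum, and scaling without the 10 highest genes by -0.67 and 0.11. Both turned the sign of Per3 and Cry2 in jejunum and of Cry2 and Nr1d2 in colon. The fit paired VSG and sham libraries by tissue, since the labels give no replicate numbers. Without the tissue term, where the unpaired VSG duodenum enters the VSG mean, Per1 stood at -0.43, Per2 at -0.30 and Cry1 at -0.14. With all 10 libraries they stood at -0.42, -0.09 and -0.16, against -0.58, -0.56 and -0.31 in the main fit. Without the stomach pair Per3 stood at -0.17, Cry2 at -0.13, Nr1d1 at 0.19 and Nr1d2 at -0.02, against -0.34, -0.23, 0.12 and -0.11. The limits are 1 library per tissue and surgery, tissues that may share animals, an unknown hour of sampling and 3 residual degrees of freedom.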
